A study of Homo sapiens with 12 samples.

Results

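The genes described here copy DNA and supply its building blocks. They are 50 of the 57820 genes in the deposited file, picked by symbol from a list of origin licensing, helicase, polymerase, clamp loader, nucleotide supply and chromatin assembly genes, and all 50 were found and tested. The cells were HL60, an established human acute myeloid leukaemia line of promyelocytic character. They carried pRRL-TFEBS211A-puro, a doxycycline-inducible vector that encodes TFEB S211A (TFEB is a transcription factor that switches on lysosome and autophagy genes), or pRRL-EV-puro, its empty counterpart (EV). RNA sequencing covered 12 libraries, 3 each of TFEB line with doxycycline, TFEB line with vehicle, EV line with doxycycline and EV line with vehicle. Treated cells had 1 µg/ml doxycycline over 48 h, an entry that the labels carry for vehicle samples too. The 3 libraries of a group came from biologically independent experiments, per the series description. Every group carries a puromycin-selectable vector, and the labels do not say whether a line was a clone or a pool. The comparison addressed is that of cells expressing TFEB S211A with each of the 3 control groups.

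Before a cell copies its genome, the origin recognition complex, CDC6 and CDT1 load the MCM2-7 helicase onto origins. The kinase made of CDC7 and its activating subunit DBF4, with CDC45 and the GINS complex, then turns the loaded helicase into an active one. Polymerases alpha, delta and epsilon copy the strands with the sliding clamp PCNA and its loader RFC, while RPA coats single strands and FEN1 and LIG1 join the lagging-strand pieces. Ribonucleotide reductase, thymidylate synthase and thymidine kinase supply deoxynucleotides. Many of these genes are transcribed around the G1 to S transition by E2F factors, and their transcripts fall in cells that leave the cell cycle.

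TFEB itself stood at 17468, 22629 and 14470.4 normalized reads in the TFEB doxycycline libraries, against 105, 118 and 149 in TFEB vehicle, 127, 83.9 and 79.8 in EV doxycycline and 129, 196 and 110.4 in EV vehicle, in the direction the labels give. These reads may come from the transgene and the endogenous gene, which were not separated. Libraries held 4474007 to 22488047 recovered reads, the smallest being EV doxycycline 3, in which 18.2% of reads fell on genes under the expression limit given next. The deposited scale did not hold the level of expressed genes equal between groups. The median log2 change of 7290 nuclear genes whose mean value reached 200 was 0.73 for TFEB doxycycline against TFEB vehicle, 1.38 against EV doxycycline and 0.06 against EV vehicle. It was -1.29 for EV doxycycline against EV vehicle and -0.66 for TFEB vehicle against EV vehicle. Each change is therefore given on the deposited scale and, as a second value, with every library rescaled by the median ratio of those 7290 genes (expressed-gene scaling), which 44 of the 50 genes belong to. On that second scale the median of all 23128 tested genes was -0.72 for TFEB doxycycline against TFEB vehicle, -1.25 against EV doxycycline and -0.077 against EV vehicle. It was 1.05 for EV doxycycline against EV vehicle and -1.67 for the interaction of vector and drug, so weakly read genes are displaced there. The 6 promyelocyte markers were read in all 12 libraries, and their summed value ranged over 7466 to 10572 in TFEB doxycycline, 47580 to 92871 in TFEB vehicle, 4520 to 28267 in EV doxycycline and 63683 to 210878 in EV vehicle. Their part in the results was not tested. The 10 markers of T, B, erythroid, epithelial, fibroblast and platelet cells summed to 181 to 326 in every library, with HBA1 and PPBP at 0 in at least 1 library. Mitochondrial reads made up 13.3% to 17.9% of the TFEB doxycycline libraries, against 23.8% to 29.4% in TFEB vehicle, and reads on nuclear genes under the expression limit 4.86% to 5.78% against 6.62% to 11.1%. Their part in the results was not tested either. In bulk RNA, fewer cells in S phase and less RNA per cell cannot be told apart.

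The promoter windows of 5 genes, picked with their changes known, are printed as examples. MCM3, PCNA and GINS2 fell in TFEB doxycycline against TFEB vehicle, while DBF4 rose and POLD2 did not pass the test. The sequences are RefSeq windows of 300 bases on GRCh38.p14, 250 before and 50 after the annotated start, written 5′ to 3′ on the gene's strand. Capitals mark a word of the E2F binding motif, read on either strand. MCM3 (chr6:52284693-52284992, minus strand) holds 2 such words, starting at positions -174 and -4 counted from the start, PCNA (chr20:5126573-5126872, minus strand, the first of 2 windows) holds 1 at -59 and GINS2 (chr16:85688905-85689204, minus strand) holds 1 at -31. DBF4 (chr7:87876243-87876542, plus strand) and POLD2 (chr7:44123499-44123798, minus strand) hold none. The windows of TK1, PRIM1, CDC45 and CHAF1B, which fell on both scales, hold none either, so the 5 printed genes do not stand for the rest.
MCM3: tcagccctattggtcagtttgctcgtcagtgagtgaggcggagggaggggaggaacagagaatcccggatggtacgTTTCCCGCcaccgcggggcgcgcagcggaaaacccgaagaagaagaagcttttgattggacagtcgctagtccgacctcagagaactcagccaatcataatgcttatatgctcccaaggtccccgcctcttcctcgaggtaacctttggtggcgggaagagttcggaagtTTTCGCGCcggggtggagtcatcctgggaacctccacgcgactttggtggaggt
PCNA: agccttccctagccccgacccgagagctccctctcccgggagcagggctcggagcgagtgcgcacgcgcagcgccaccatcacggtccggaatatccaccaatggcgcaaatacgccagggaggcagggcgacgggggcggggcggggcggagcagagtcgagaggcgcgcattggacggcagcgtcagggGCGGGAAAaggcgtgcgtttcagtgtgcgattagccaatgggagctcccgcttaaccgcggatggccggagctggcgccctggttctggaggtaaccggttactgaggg
GINS2: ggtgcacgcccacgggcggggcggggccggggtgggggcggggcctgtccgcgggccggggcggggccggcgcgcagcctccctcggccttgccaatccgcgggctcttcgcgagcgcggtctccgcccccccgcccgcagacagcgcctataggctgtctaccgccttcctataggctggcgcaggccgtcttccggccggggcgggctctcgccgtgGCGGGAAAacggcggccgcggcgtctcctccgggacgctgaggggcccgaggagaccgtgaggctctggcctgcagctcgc
DBF4: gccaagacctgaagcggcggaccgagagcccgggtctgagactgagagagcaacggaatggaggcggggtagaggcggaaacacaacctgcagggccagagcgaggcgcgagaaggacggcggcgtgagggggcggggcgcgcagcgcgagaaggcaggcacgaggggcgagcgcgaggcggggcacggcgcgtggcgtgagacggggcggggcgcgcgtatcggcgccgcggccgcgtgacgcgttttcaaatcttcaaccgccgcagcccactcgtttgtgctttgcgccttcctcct
POLD2: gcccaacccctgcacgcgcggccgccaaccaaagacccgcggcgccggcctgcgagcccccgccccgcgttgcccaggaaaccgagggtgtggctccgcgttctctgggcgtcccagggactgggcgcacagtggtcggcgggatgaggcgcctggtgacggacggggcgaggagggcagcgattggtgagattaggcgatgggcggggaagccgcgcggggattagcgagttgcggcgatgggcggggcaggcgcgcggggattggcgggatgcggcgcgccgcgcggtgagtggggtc

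Promoter windows were matched for 44 of the 50 genes (56 windows), leaving MCM4, POLD3, MCM5, GINS4, RPA2 and RPA3 without one. The E2F words searched were TTTCGCGC, TTTGGCGC, TTTCCCGC and TTTGCCGC on both strands. At least 1 stood in a window of 21 of the 44 genes, or 47.7%, against 3.99% of all 27305 genes with a window and 5.40% of the 15843 protein-coding ones. Those 21 were CDC6, CDC7, CDCA7, CDT1, GINS1, GINS2, GINS3, GMNN, LIG1, MCM2, MCM3, MCM6, MCM7, ORC3, PCNA, POLA1, POLA2, POLE, POLE2, RFC3 and TYMS. CCAAT, read on both strands, stood in 56.8% of the 44 genes, in 39.7% of all genes and in 42.1% of the protein-coding ones. The E-box CACGTG, the core of the site that TFEB binds, stood in 7 of the 44, or 15.9%. It stood in 8.77% of all genes and 10.9% of the protein-coding ones. These 7 were CHAF1A, FEN1, GMNN, MCM2, MCM7, ORC4 and RPA1. Its longer form TCACGTGA, which contains the E-box, stood in CHAF1A, FEN1 and MCM2, or 6.82% against 1.18% (1.65% of the protein-coding genes). TTTGAA, the letters of the cell cycle homology region, stood in DBF4 and RRM1, or 4.55% against 18.2% (15.8% of the protein-coding genes). A match describes letters in the window and does not show binding.

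Within the TFEB line, many transcripts of the replication machinery were lower with doxycycline, and how many passed the test depended on the scale. DBF4 was higher on both scales. What the drug did in the EV line is given further below. Against TFEB vehicle, 20 of the 50 genes were lower and 1 was higher on the deposited scale (limma, Benjamini-Hochberg adjusted p under 0.05 over 23128 genes), where 4.66% of all tested genes were lower and 17.4% higher (3.51% and 31.5% of the expressed ones). On recovered reads edgeR called 39 lower and 2 higher, beside 9.49% and 19.4% of all tested genes. With expressed-gene scaling 45 were lower and 1 higher, against 33.2% lower and 34.4% higher among the 7290 expressed genes and 20.7% and 14.4% among all tested genes. The 20 genes were CDC6, CDCA7, CDC45, CDC7, CHAF1B, GINS2, LIG1, MCM3, MCM4, MCM5, MCM7, PCNA, POLD3, POLE, POLE2, PRIM1, RFC5, RRM1, TK1 and TYMS, and these 20 with DBF4 kept their call under each of 5 scalings. The median log2 change of the 50 genes was -1.09 on the deposited scale, where the median of all tested genes was -0.00174, and -1.84 with expressed-gene scaling. In 37 of the 50 genes every TFEB doxycycline library lay below every TFEB vehicle library on the deposited scale, and in ORC4, ORC5 and DBF4 every one lay above. The share of all tested genes separated in this way was not counted. These separations therefore describe the 50 genes and do not set them apart from other genes. The count of 20 rested on few libraries: it was 13, 12 and 11 without TFEB doxycycline 1, 2 and 3 in turn, 11 without TFEB vehicle 2 and 10 without TFEB vehicle 3. With expressed-gene scaling it was 42 to 45 when each library was left out.

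The genes were also read as a share of the reads on nuclear genes, a scaling that sets the nuclear totals of the libraries equal. The 49 genes other than DBF4 took 0.115 ± 0.0155% of the reads on nuclear genes in TFEB doxycycline, 0.472 ± 0.00843% in TFEB vehicle, 0.35 ± 0.0527% in EV doxycycline and 0.513 ± 0.00762% in EV vehicle (SD, n = 3 each). The TFEB doxycycline libraries ranged from 0.105% to 0.133%, and the lowest library of any other group, EV doxycycline 3, stood at 0.292%. DBF4 alone took 0.0424 ± 0.00219% in TFEB doxycycline, 0.00768 ± 0.00131% in TFEB vehicle, 0.00635 ± 0.000699% in EV doxycycline and 0.00802 ± 0.000833% in EV vehicle. With 3 libraries against 3, an exact two-sided permutation test of such a share cannot go below p = 0.1, so the separation is given as ranges.

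**Figure D1:**
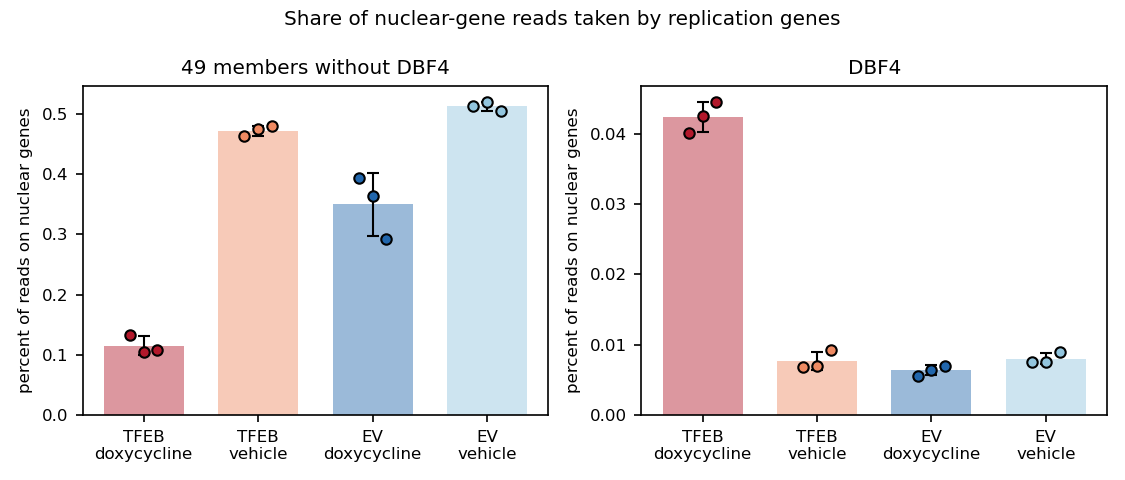
Percent of reads on nuclear genes taken by the 49 genes other than DBF4 (left panel) and by DBF4 (right panel). Points are libraries, bars are group means and error bars are SD (n = 3). The 49 genes took 0.115% on average in TFEB doxycycline, against 0.472% in TFEB vehicle, 0.350% in EV doxycycline and 0.513% in EV vehicle, while DBF4 took 0.0424% against 0.00768%, 0.00635% and 0.00802%.

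**Figure D2:**
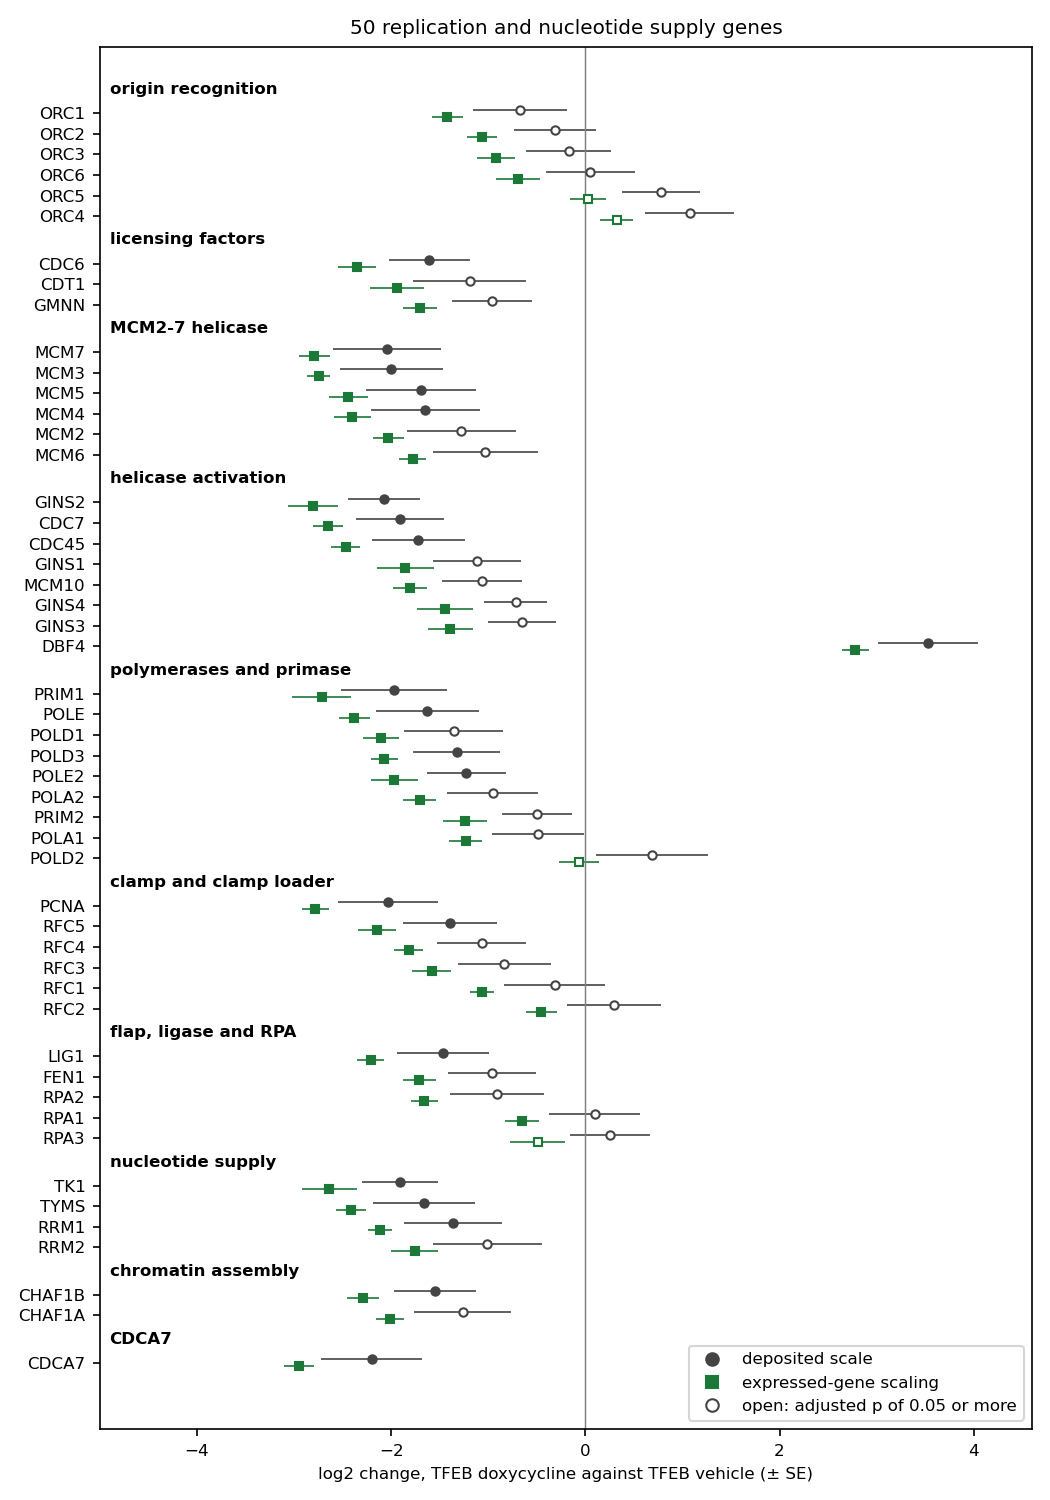
Log2 change of each of the 50 genes in TFEB doxycycline against TFEB vehicle, with SE, grouped by role. Circles are the deposited scale and squares expressed-gene scaling, filled where the limma adjusted p was under 0.05. Squares lie left of zero for 47 genes, with DBF4 far to the right at 2.78.

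The origin recognition complex, whose ORC1 to ORC6 proteins mark origins, had the smallest median change of the 10 roles, -0.06 on the deposited scale and -0.81 with expressed-gene scaling. None of the 6 genes passed the limma test on the deposited scale, while edgeR on recovered reads called ORC1 lower and ORC4 higher. With expressed-gene scaling ORC1, ORC2, ORC3 and ORC6 fell, by 0.70 to 1.42 on the log2 scale, and ORC4 and ORC5 did not pass the test. ORC4 stood at 647, 627 and 541 in TFEB doxycycline, 244, 362 and 264 in TFEB vehicle, 379.5, 273 and 137 in EV doxycycline and 379, 690.2 and 293 in EV vehicle. Its 3 TFEB doxycycline values lay above all TFEB vehicle values and overlapped those of EV vehicle. Against TFEB vehicle ORC4 changed by 1.07 ± 0.46 (SE, log2) on the deposited scale (limma adjusted p = 0.0889) and by 0.33 ± 0.17 with expressed-gene scaling (limma adjusted p = 0.137). ORC5 stood at 284, 354 and 330.2 in TFEB doxycycline, 128, 249 and 207 in TFEB vehicle, 132, 106 and 73.5 in EV doxycycline and 239, 427 and 219 in EV vehicle. Again TFEB doxycycline lay above TFEB vehicle and EV doxycycline in every library. The log2 change of ORC5 was 0.77 ± 0.40 (SE) on the deposited scale (limma adjusted p = 0.177) and 0.03 ± 0.19 with expressed-gene scaling (limma adjusted p = 0.906), against TFEB vehicle. ORC1, the subunit whose transcript is E2F-regulated in human cells, stood at 332, 343 and 275 in TFEB doxycycline, 372, 578 and 594 in TFEB vehicle, 428, 247 and 97.8 in EV doxycycline and 720.0, 1234 and 523 in EV vehicle, below TFEB vehicle in every library and within the range of EV doxycycline. Its change was -0.67 on the deposited scale (limma adjusted p = 0.358) and -1.42 with expressed-gene scaling (limma adjusted p = 2.16e-06).

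The licensing factors load the helicase (CDC6, CDT1) or hold it back (GMNN, geminin, the inhibitor of CDT1), and all 3 were lower with expressed-gene scaling, CDC6 also on the deposited scale. CDC6 stood at 87, 114 and 127 in TFEB doxycycline, 221, 374 and 438 in TFEB vehicle, 255, 168 and 121 in EV doxycycline and 444, 743 and 466 in EV vehicle. The TFEB doxycycline values lay below every TFEB vehicle value, and the highest, 127, lay just above the lowest EV doxycycline value, 121. CDC6 changed by -1.61 ± 0.42 (SE, log2) against TFEB vehicle on the deposited scale (limma adjusted p = 0.00337), and with expressed-gene scaling by -2.35 ± 0.20 (limma adjusted p = 7.23e-08). CDT1 stood at 533, 771 and 442 in TFEB doxycycline, 955, 1574 and 1444 in TFEB vehicle, 908, 384 and 96 in EV doxycycline and 1685, 3743 and 1353 in EV vehicle. The EV doxycycline values spread widely, with EV doxycycline 3 below every TFEB doxycycline library. For CDT1, limma gave a log2 change against TFEB vehicle of -1.19 ± 0.58 (SE, adjusted p = 0.147) on the deposited scale and -1.94 ± 0.28 (adjusted p = 3.1e-05) with expressed-gene scaling. GMNN changed by -0.96 on the deposited scale (limma adjusted p = 0.0942) and by -1.71 with expressed-gene scaling (limma adjusted p = 7.14e-07). The ratio of CDT1 to GMNN reads within a library was 5.28 ± 0.897 in TFEB doxycycline, against 6.2 ± 1.27 in TFEB vehicle, 3.24 ± 1.84 in EV doxycycline and 6.08 ± 0.557 in EV vehicle (SD, n = 3 each). TFEB doxycycline and TFEB vehicle overlapped, while every EV doxycycline library lay below every EV vehicle library.

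The MCM2-7 helicase unwinds DNA at the fork, and its 6 genes had a median change of -1.67 on the deposited scale and -2.42 with expressed-gene scaling. MCM3, MCM4, MCM5 and MCM7 fell on both scales, and MCM2 and MCM6 fell with expressed-gene scaling. Together they took 0.0225 ± 0.00184% of nuclear reads in TFEB doxycycline, against 0.139 ± 0.00209% in TFEB vehicle, 0.0866 ± 0.0242% in EV doxycycline and 0.155 ± 0.00711% in EV vehicle (SD, n = 3 each). MCM7 stood at 363, 553 and 372 in TFEB doxycycline, 1139, 2045 and 2247 in TFEB vehicle, 1233, 766 and 244 in EV doxycycline and 2479.6, 4657 and 1974 in EV vehicle. Every TFEB doxycycline library lay below every TFEB vehicle library, while EV doxycycline ranged across both. Its log2 change against TFEB vehicle was -2.04 ± 0.55 (SE) on the deposited scale (limma adjusted p = 0.0051) and -2.79 ± 0.16 with expressed-gene scaling (limma adjusted p = 9.85e-10). MCM3 stood at 373, 437 and 364 in TFEB doxycycline, 1099, 1742 and 1986 in TFEB vehicle, 1201, 705 and 328 in EV doxycycline and 2229, 4185 and 1882 in EV vehicle, with the 3 TFEB doxycycline values close together. Against TFEB vehicle MCM3 changed by -2.0 ± 0.53 (SE, log2) on the deposited scale (limma adjusted p = 0.00404) and by -2.75 ± 0.12 with expressed-gene scaling (limma adjusted p = 4.81e-11). MCM2 and MCM6 changed by -1.28 and -1.03 on the deposited scale (limma adjusted p = 0.103 and 0.183), and by -2.03 and -1.78 with expressed-gene scaling.

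Among the helicase activation genes DBF4 rose and the others fell on at least 1 scale. CDC7, the kinase, CDC45, the helicase cofactor, and GINS2, a GINS subunit, fell on both scales. MCM10, GINS1, GINS3 and GINS4 fell with expressed-gene scaling, by 1.39 to 1.86 on the log2 scale. DBF4, an activating subunit of CDC7, stood at 5246, 8049 and 6221 in TFEB doxycycline, 356, 599 and 794 in TFEB vehicle, 410.1, 325 and 187 in EV doxycycline and 738, 1331 and 709 in EV vehicle. Each TFEB doxycycline library stood far above all 9 others. The log2 change of DBF4 was 3.53 ± 0.51 (SE) on the deposited scale (limma adjusted p = 5.36e-07) and 2.78 ± 0.14 with expressed-gene scaling (limma adjusted p = 1.9e-10), against TFEB vehicle. CDC7 stood at 110.0, 125 and 85.6 in TFEB doxycycline, 281, 454 and 498 in TFEB vehicle, 325, 274 and 103 in EV doxycycline and 583, 1141 and 521 in EV vehicle, with TFEB doxycycline below TFEB vehicle in every library. CDC7 changed by -1.91 ± 0.45 (SE, log2) against TFEB vehicle on the deposited scale (limma adjusted p = 0.00124), and with expressed-gene scaling by -2.65 ± 0.15 (limma adjusted p = 9.53e-10). DBF4 and CDC7 reads stood in a ratio of 61.6 ± 12.7 in TFEB doxycycline, against 1.39 ± 0.177 in TFEB vehicle, 1.42 ± 0.346 in EV doxycycline and 1.26 ± 0.0973 in EV vehicle (SD, n = 3 each, reads not corrected for length). GINS2 stood at 34.6, 55.9 and 22 in TFEB doxycycline, 111, 178 and 171 in TFEB vehicle, 105, 77.2 and 44.8 in EV doxycycline and 191, 355 and 189 in EV vehicle, so its TFEB doxycycline values rest on few reads. For GINS2, limma gave a log2 change against TFEB vehicle of -2.07 ± 0.37 (SE, adjusted p = 2.33e-05) on the deposited scale and -2.80 ± 0.26 (adjusted p = 1.86e-07) with expressed-gene scaling.

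Of the 9 polymerase and primase genes, PRIM1, POLE, POLE2 and POLD3 fell on both scales, and POLA1, POLA2, PRIM2 and POLD1 fell with expressed-gene scaling. PRIM1, the catalytic primase subunit, stood at 234, 212 and 155 in TFEB doxycycline, 633, 1094 and 672 in TFEB vehicle, 889, 398 and 118 in EV doxycycline and 1366, 2273 and 633 in EV vehicle, with TFEB doxycycline below TFEB vehicle in every library and EV doxycycline spread from 118 to 889. Its log2 change against TFEB vehicle was -1.97 ± 0.55 (SE) on the deposited scale (limma adjusted p = 0.00625) and -2.71 ± 0.31 with expressed-gene scaling (limma adjusted p = 2.06e-06). POLE, the catalytic subunit of polymerase epsilon, stood at 541, 484 and 378 in TFEB doxycycline, 1136, 1629 and 1592 in TFEB vehicle, 1469, 949 and 409 in EV doxycycline and 2078, 3889.6 and 1579 in EV vehicle. Against TFEB vehicle POLE changed by -1.63 ± 0.53 (SE, log2) on the deposited scale (limma adjusted p = 0.0215) and by -2.38 ± 0.16 with expressed-gene scaling (limma adjusted p = 4.03e-09). POLD2, an accessory subunit of polymerase delta, stood apart from the other 8. It stood at 2839.7, 2905 and 2009.5 in TFEB doxycycline, 1044, 2133 and 1794 in TFEB vehicle, 967, 752 and 195 in EV doxycycline and 2278, 4780.1 and 1718 in EV vehicle, and TFEB doxycycline overlapped TFEB vehicle but lay above every EV doxycycline library. The log2 change of POLD2 was 0.68 ± 0.58 (SE) on the deposited scale (limma adjusted p = 0.443) and -0.07 ± 0.21 with expressed-gene scaling (limma adjusted p = 0.787), against TFEB vehicle. POLD1, the catalytic subunit of the same polymerase, stood at 254, 299 and 231 in TFEB doxycycline, 497, 864 and 687 in TFEB vehicle, 543, 408 and 117 in EV doxycycline and 846, 1906 and 664 in EV vehicle, below TFEB vehicle in every library. Its change was -1.35 on the deposited scale (limma adjusted p = 0.0506) and -2.10 with expressed-gene scaling (limma adjusted p = 1.13e-07).

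PCNA, the sliding clamp, stood at 228, 371 and 198 in TFEB doxycycline, 676, 1191 and 1447 in TFEB vehicle, 929.7, 562 and 300.5 in EV doxycycline and 1442, 2717 and 1184 in EV vehicle. The highest TFEB doxycycline value, 371, lay below the lowest TFEB vehicle value, 676, and above the lowest EV doxycycline value. PCNA changed by -2.03 ± 0.51 (SE, log2) against TFEB vehicle on the deposited scale (limma adjusted p = 0.00256), and with expressed-gene scaling by -2.78 ± 0.14 (limma adjusted p = 1.77e-10). Of the 5 clamp loader genes, RFC5 fell on both scales and RFC1, RFC2, RFC3 and RFC4 fell with expressed-gene scaling, RFC2 by the least. RFC5 stood at 245, 209 and 146 in TFEB doxycycline, 401, 574 and 597 in TFEB vehicle, 465, 279 and 118 in EV doxycycline and 773, 1454 and 499 in EV vehicle. For RFC5, limma gave a log2 change against TFEB vehicle of -1.40 ± 0.48 (SE, adjusted p = 0.0321) on the deposited scale and -2.14 ± 0.20 (adjusted p = 2.06e-07) with expressed-gene scaling. RFC2 stood at 645, 624 and 456 in TFEB doxycycline, 349.8, 499 and 569 in TFEB vehicle, 376, 222 and 104 in EV doxycycline and 698, 1148 and 501 in EV vehicle, overlapping TFEB vehicle and lying above every EV doxycycline library. Its log2 change against TFEB vehicle was 0.30 ± 0.48 (SE) on the deposited scale (limma adjusted p = 0.711) and -0.45 ± 0.16 with expressed-gene scaling (limma adjusted p = 0.0361).

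LIG1, the ligase that seals lagging-strand pieces, fell on both scales, and FEN1, RPA1 and RPA2 fell with expressed-gene scaling. LIG1 stood at 199, 227 and 188 in TFEB doxycycline, 452, 615 and 651 in TFEB vehicle, 629, 410.1 and 177 in EV doxycycline and 799.6, 1501 and 737 in EV vehicle, with TFEB doxycycline below TFEB vehicle in every library. Against TFEB vehicle LIG1 changed by -1.47 ± 0.48 (SE, log2) on the deposited scale (limma adjusted p = 0.0212) and by -2.21 ± 0.13 with expressed-gene scaling (limma adjusted p = 1.6e-09). FEN1, the flap endonuclease, stood at 179, 219 and 159 in TFEB doxycycline, 235, 395 and 505 in TFEB vehicle, 282, 173 and 78.9 in EV doxycycline and 411, 823 and 497 in EV vehicle. The log2 change of FEN1 was -0.96 ± 0.45 (SE) on the deposited scale (limma adjusted p = 0.129) and -1.71 ± 0.17 with expressed-gene scaling (limma adjusted p = 5.51e-07), against TFEB vehicle. RPA3, the smallest subunit of the single-strand binding protein, did not pass the test on either scale. It stood at 102, 289 and 210.4 in TFEB doxycycline, 90.4, 174 and 231 in TFEB vehicle, 116, 88.1 and 62.8 in EV doxycycline and 179, 303 and 216 in EV vehicle, the TFEB doxycycline values overlapping each other group. RPA3 changed by 0.25 ± 0.41 (SE, log2) against TFEB vehicle on the deposited scale (limma adjusted p = 0.708), and with expressed-gene scaling by -0.49 ± 0.28 (limma adjusted p = 0.172). The gene RPA3 overlaps UMAD1 (synonym RPA3-AS1) and the start of ORC4 overlaps MBD5 in the RefSeq annotation, and no source used here gives the strand setting of the counting, so reads of these genes may be shared.

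Genes of nucleotide supply were lower too. TK1, TYMS and RRM1 fell on both scales and RRM2 with expressed-gene scaling. TK1, the cytosolic thymidine kinase, stood at 31.4, 38.7 and 20.8 in TFEB doxycycline, 95.9, 146 and 103 in TFEB vehicle, 187, 93.1 and 44.8 in EV doxycycline and 160.4, 294 and 109 in EV vehicle. TFEB doxycycline lay below every library of the other 3 groups. For TK1, limma gave a log2 change against TFEB vehicle of -1.91 ± 0.39 (SE, adjusted p = 0.000174) on the deposited scale and -2.64 ± 0.28 (adjusted p = 1.07e-06) with expressed-gene scaling. TYMS, thymidylate synthase, stood at 359, 599 and 433 in TFEB doxycycline, 880.3, 1529.7 and 2216 in TFEB vehicle, 1163, 755 and 415 in EV doxycycline and 1794, 3306 and 1982 in EV vehicle. Its log2 change against TFEB vehicle was -1.66 ± 0.53 (SE) on the deposited scale (limma adjusted p = 0.0173) and -2.41 ± 0.16 with expressed-gene scaling (limma adjusted p = 3.44e-09). RRM2, the S phase subunit of ribonucleotide reductase, stood at 1107, 751 and 631 in TFEB doxycycline, 1162, 2105 and 1753 in TFEB vehicle, 1695, 887 and 303 in EV doxycycline and 2903, 4298 and 1916 in EV vehicle, with TFEB doxycycline below TFEB vehicle in every library. Its change was -1.01 on the deposited scale (limma adjusted p = 0.217) and -1.76 with expressed-gene scaling (limma adjusted p = 2.2e-05). The 4 genes took 0.0111 ± 0.00238% of nuclear reads in TFEB doxycycline, against 0.0563 ± 0.00359% in TFEB vehicle, 0.0441 ± 0.00777% in EV doxycycline and 0.0617 ± 0.00432% in EV vehicle.

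CHAF1A and CHAF1B, subunits of the chaperone that places histones behind the fork, and CDCA7, a MYC- and E2F-responsive gene, were lower as well. CHAF1B stood at 115, 116 and 114 in TFEB doxycycline, 268, 386 and 374 in TFEB vehicle, 295, 182 and 111 in EV doxycycline and 481, 807 and 373 in EV vehicle, the TFEB doxycycline values lying close together and below every TFEB vehicle library. Against TFEB vehicle CHAF1B changed by -1.55 ± 0.42 (SE, log2) on the deposited scale (limma adjusted p = 0.0054) and by -2.29 ± 0.16 with expressed-gene scaling (limma adjusted p = 1.04e-08). CHAF1A stood at 341, 469 and 257 in TFEB doxycycline, 552, 983 and 1055 in TFEB vehicle, 674, 382 and 219 in EV doxycycline and 1163, 2073 and 985 in EV vehicle. The log2 change of CHAF1A was -1.26 ± 0.50 (SE) on the deposited scale (limma adjusted p = 0.0649) and -2.01 ± 0.14 with expressed-gene scaling (limma adjusted p = 8.22e-09), against TFEB vehicle. CDCA7 stood at 200.1, 263 and 229.9 in TFEB doxycycline, 658, 1275 and 1411 in TFEB vehicle, 678, 456 and 155 in EV doxycycline and 1685, 3107 and 1309 in EV vehicle, and TFEB doxycycline lay below every TFEB vehicle library. CDCA7 changed by -2.20 ± 0.52 (SE, log2) against TFEB vehicle on the deposited scale (limma adjusted p = 0.00127), and with expressed-gene scaling by -2.95 ± 0.15 (limma adjusted p = 3.01e-10). Of the 50 genes it had the most negative change on both scales in this comparison.

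**Figure D3:**
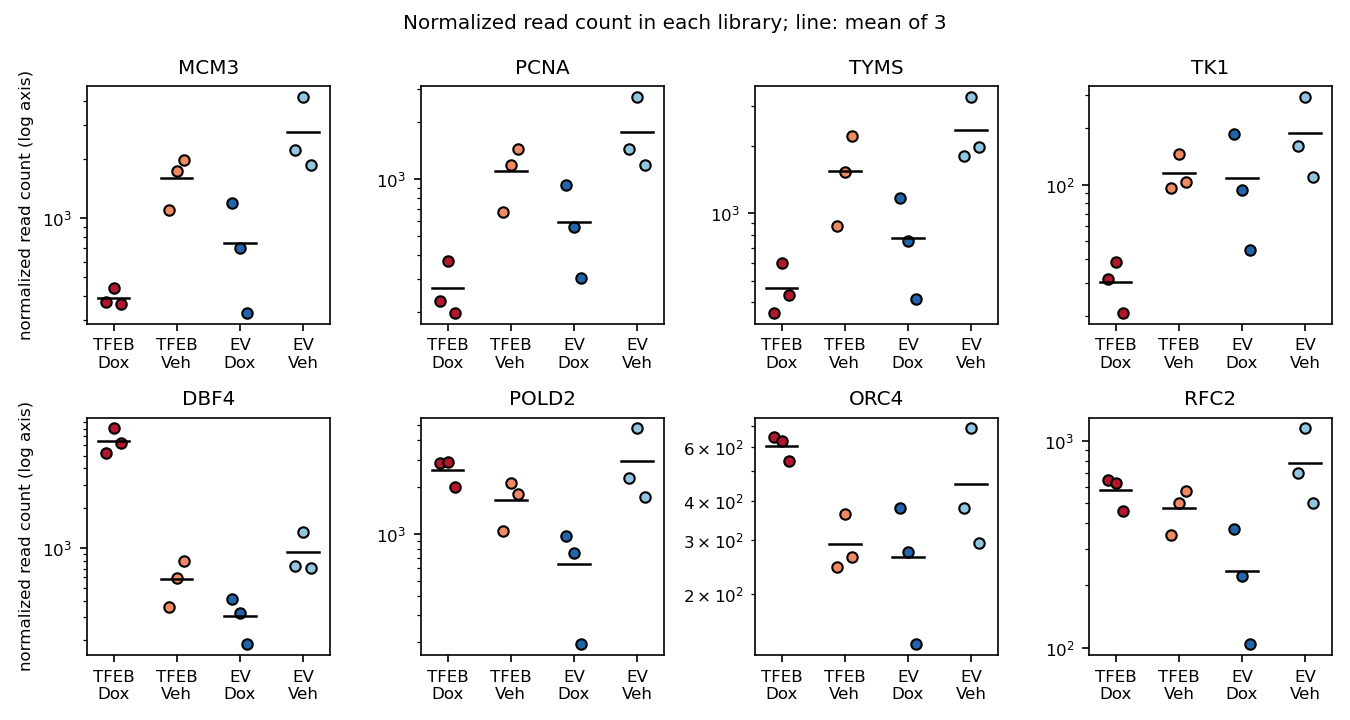
Normalized read count of 8 genes in each library on log axes, with the group mean as a line (n = 3). MCM3, PCNA, TYMS and TK1 lie below TFEB vehicle in every TFEB doxycycline library. DBF4 and ORC4 lie above it, and POLD2 and RFC2 overlap it.

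Subunits of 1 complex moved apart, which a ratio of reads within a library shows without scaling. POLD2 to POLD1 stood at 9.87 ± 1.26 in TFEB doxycycline, against 2.39 ± 0.262 in TFEB vehicle, 1.76 ± 0.0954 in EV doxycycline and 2.6 ± 0.0922 in EV vehicle (SD, n = 3 each). RFC2 to RFC5 stood at 2.92 ± 0.258 in TFEB doxycycline, against 0.898 ± 0.0479 in TFEB vehicle, 0.828 ± 0.0447 in EV doxycycline and 0.899 ± 0.107 in EV vehicle. In both pairs every TFEB doxycycline library lay above all 9 others. ORC4 to ORC1 stood at 1.91 ± 0.0743 in TFEB doxycycline, against 0.576 ± 0.115 in TFEB vehicle, 1.13 ± 0.259 in EV doxycycline and 0.549 ± 0.0188 in EV vehicle, so doxycycline libraries of the EV line were also above their vehicle. RRM2 to RRM1 stood at 2.47 ± 0.923 in TFEB doxycycline and 1.86 ± 0.275 in TFEB vehicle, and these ranges overlapped. The pairs were picked after their values were seen.

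**Figure D4:**
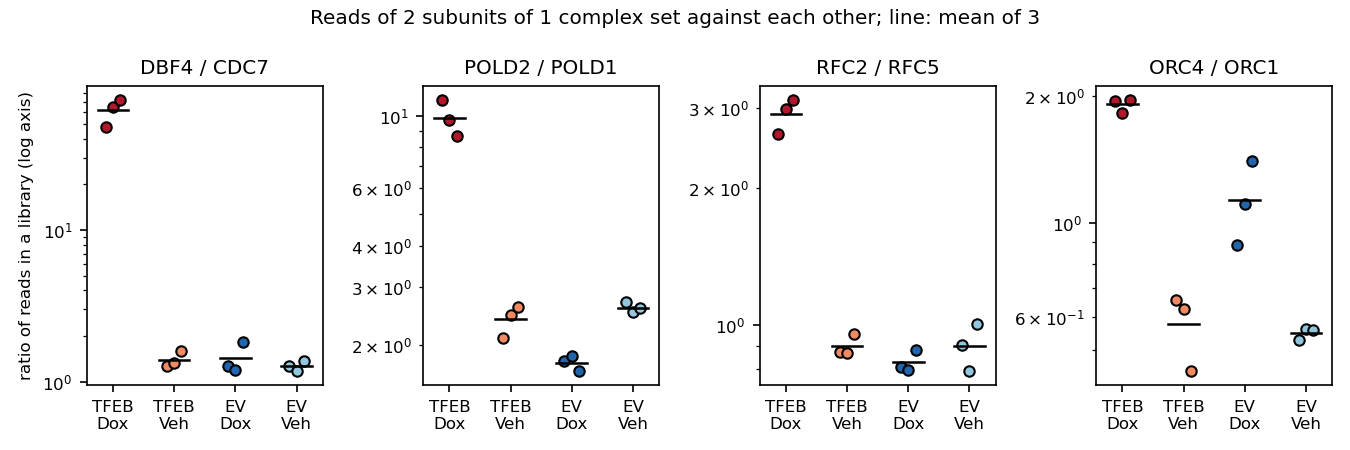
Ratio of the reads of 2 subunits in each library on log axes, with the group mean as a line (n = 3). TFEB doxycycline stands highest in each pair, at 61.6 for DBF4 to CDC7, 9.87 for POLD2 to POLD1, 2.92 for RFC2 to RFC5 and 1.91 for ORC4 to ORC1.

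In the EV line, which carries no TFEB transgene, replication transcripts were also lower with doxycycline. Against EV vehicle, 45 of the 50 genes were lower in EV doxycycline and 0 higher on the deposited scale with limma (0 higher also at an unadjusted p under 0.05 and with edgeR and DESeq2), beside 23.3% lower and 3.39% higher among all tested genes and 51.2% lower and 0.37% higher among the expressed ones. On recovered reads edgeR called 41 lower, beside 14.6% of all tested genes (16.7% higher). With expressed-gene scaling 21 were lower and 1, ORC4, was higher, beside 5.75% and 44.1% of all tested genes and 17.5% and 20.9% of the expressed ones, and the median change was -0.36. The 21 were the whole of MCM2-7, CDC45, CDC7, CDCA7, CDT1, CHAF1A, FEN1, MCM10, ORC1, POLD1, POLD2, RFC1, RFC2, RFC3, RRM1 and RRM2. CDT1 had the most negative change, -1.37 ± 0.28 with expressed-gene scaling (limma adjusted p = 0.00421), and MCM4 and POLD2 changed by -1.05 and -1.06. PCNA, TYMS, TK1, CDC6 and POLE did not pass the test on that scale, at -0.34, -0.38, 0.38, -0.34 and -0.20. On the deposited scale the count of 45 was 4 without EV vehicle 2 and 21 without EV doxycycline 3. On the second scale the count of 21 was 12 without EV doxycycline 3, 14 without EV vehicle 1 and 11 without EV vehicle 2. Reads on nuclear genes under the expression limit made up 8.43% to 18.2% of the EV doxycycline libraries, against 4.74% to 7.77% in EV vehicle. Mitochondrial reads made up 26.2% to 33.1% in EV doxycycline, against 21.0% to 26.5% in EV vehicle, and the part of either in the result was not tested.

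Set against EV doxycycline, which has the drug without the transgene, the reading depended on the scale. On the deposited scale 2 of the 50 genes, GINS2 and TK1, were lower in TFEB doxycycline and 6 were higher (DBF4, POLD2, ORC5, RFC2, ORC4 and RPA3), beside 5.37% lower and 27.2% higher among all tested genes and 0.686% and 55.8% among the expressed ones (limma). On recovered reads edgeR called 24 lower and 6 higher, beside 16.4% and 25.4% of all tested genes. With expressed-gene scaling 43 were lower and 2 higher (DBF4 and POLD2), beside 35.4% and 36.4% of the expressed genes and 57.6% and 14.2% of all tested genes. The median change of the 50 was then -1.55, beside -1.25 over all tested genes and 0.011 over the expressed ones. GINS2, TK1, DBF4 and POLD2 kept their call under each of 5 scalings. Over all alternative settings, libraries left out included, TK1, DBF4 and POLD2 kept their call in 39 of 39. GINS2 kept its call in 33 and lost it in 6, at changes of -1.01 to -0.69. TK1 changed by -1.62 ± 0.39 on the deposited scale (limma adjusted p = 0.00102), and GINS2 by -1.01 ± 0.37 (limma adjusted p = 0.0312). With expressed-gene scaling MCM3 changed by -2.12 ± 0.12 (limma adjusted p = 8.92e-10), PCNA by -2.45 ± 0.14 (limma adjusted p = 8.63e-10) and POLE by -2.22 ± 0.16 (limma adjusted p = 1.05e-08), and CDT1 did not pass the test at -0.56 ± 0.28 (limma adjusted p = 0.0791). On the deposited scale the number lower was 10 without EV doxycycline 3 and 1 without EV doxycycline 1 or 2 or TFEB doxycycline 1 or 3, while the number higher was 3 without EV doxycycline 3 or TFEB doxycycline 2.

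Against EV vehicle, where the expressed-gene shift was smallest, both scales gave nearly the same picture. On the deposited scale 37 of the 50 genes were lower in TFEB doxycycline and 1, DBF4, was higher, beside 8.51% lower and 12.2% higher among all tested genes and 9.99% and 17.6% among the expressed ones (limma). With expressed-gene scaling 45 were lower and 1 higher, beside 16.2% and 15.9% of all tested genes and 33.3% and 34.6% of the expressed ones. On recovered reads edgeR called 42 lower and 2 higher, beside 9.75% and 18.7%. The median change was -1.86 on the deposited scale and -1.94 with expressed-gene scaling. CDCA7 changed by -3.04 ± 0.52 (limma adjusted p = 1.28e-05), MCM7 by -2.75 ± 0.55 (limma adjusted p = 0.000165) and DBF4 by 2.85 ± 0.51 (limma adjusted p = 3.06e-05) on the deposited scale. Lower against each of the 3 controls were 2 genes on the deposited scale, GINS2 and TK1, beside 1.35% of all tested genes, and 43 with expressed-gene scaling, beside 13.8%. These 3 comparisons share the TFEB doxycycline libraries. That count of 2 on the deposited scale was 10 without EV doxycycline 3 and 1 without EV doxycycline 1 or 2 or TFEB doxycycline 1 or 3. TFEB vehicle against EV vehicle gave 0 lower and 0 higher of the 50 genes with limma on both scales, and 0 of all tested genes (0%), and edgeR and DESeq2 also gave 0 of the 50. At an unadjusted p under 0.05, 2 of the 50 were lower and 0 higher on the deposited scale, among 1754 of all tested genes.

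The response to doxycycline itself was compared between the lines through the interaction of vector and drug. On the deposited scale 0 of the 50 genes had a lower response in the TFEB line and 6 a higher one, beside 6.15% and 29.2% of all tested genes and 0.0686% and 62.6% of the expressed ones (limma, with 0 lower and 9 higher at an unadjusted p under 0.05). DESeq2 called 1 lower and edgeR 10, beside 24.4% of all tested genes with edgeR (22.6% higher). The median interaction of expressed genes was 2.04 on that scale. With expressed-gene scaling 41 had a lower response in the TFEB line and 2 a higher one, DBF4 and POLD2, beside 29.9% and 31.1% of the expressed genes and 57.8% and 11% of all tested ones. The median interaction of the 50 was then -1.48, beside -1.67 over all tested genes and 0.0066 over the expressed ones. MCM3, for example, changed by -2.75 in the TFEB line and by -0.70 in the EV line with expressed-gene scaling, an interaction of -2.04 ± 0.17 (limma adjusted p = 2.33e-07). PCNA changed by -2.78 in the TFEB line and -0.34 in the EV line, an interaction of -2.44 ± 0.20 (limma adjusted p = 1.56e-07). CDT1 changed by -1.94 in the TFEB line and -1.37 in the EV line, an interaction of -0.57 ± 0.40 that did not pass the test (limma adjusted p = 0.203). The deposited count of 6 higher was 11 without EV doxycycline 1.

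**Figure D5:**
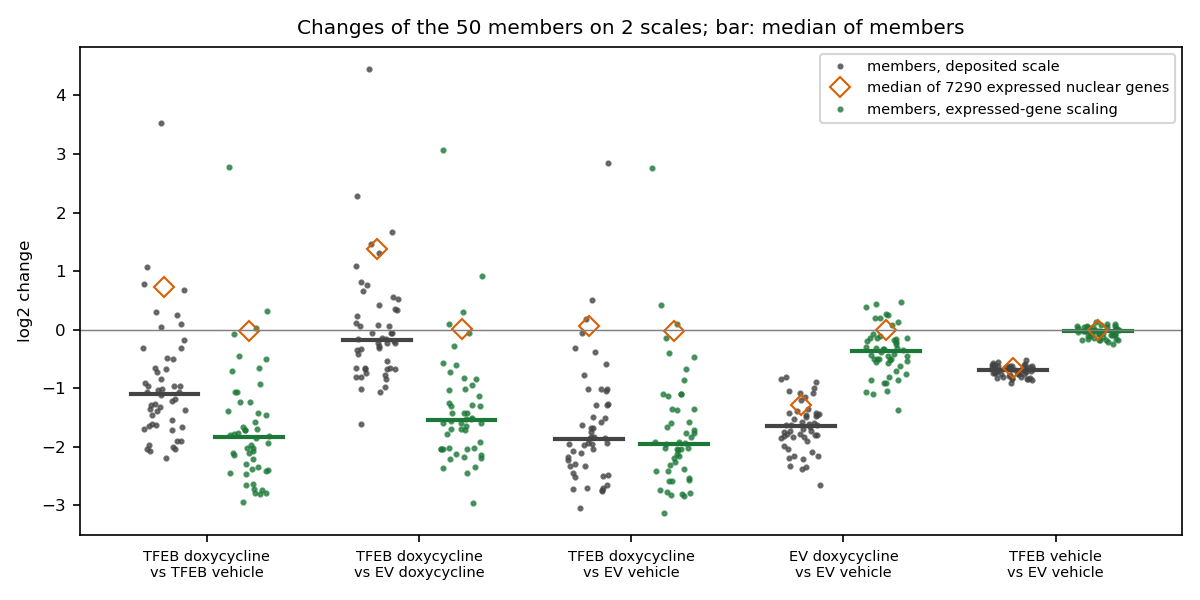
Log2 changes of the 50 genes in 5 comparisons on the deposited scale and with expressed-gene scaling, with the median of the 50 as a bar and the median of the 7290 expressed nuclear genes as a diamond. In the 3 comparisons of TFEB doxycycline the bar lies below the diamond on both scales, at -1.84 against -0.02 for TFEB vehicle with expressed-gene scaling. For TFEB vehicle against EV vehicle they lie at -0.69 and -0.66 on the deposited scale.

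Genes with an E2F word in their window and genes without one both fell. With expressed-gene scaling all 21 genes with a word were lower in TFEB doxycycline against TFEB vehicle, with changes of -2.95 to -0.92 and a median of -2.03. Of the 23 matched genes without one, 19 were lower and 1 higher, with a median of -1.71. On the deposited scale 11 of the 21 and 6 of the 23 were lower. Among all tested genes 20.7% were lower with expressed-gene scaling and 4.66% on the deposited scale. Among the expressed ones these shares were 33.2% and 3.51%. DBF4, POLD2, ORC4, ORC5 and RFC2, which stood highest against EV doxycycline, are all among the 23, as are TK1, PRIM1, CDC45 and CHAF1B, which fell on both scales. The split was made after the changes were known and was not tested.

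Further genes of the pathway are read beside the 4.66% lower and 17.4% higher among all tested genes on the deposited scale, and 20.7% and 14.4% with expressed-gene scaling. Of 31 further replication fork and licensing genes, 30 were tested, and against TFEB vehicle 9 were lower and 0 higher on the deposited scale and 26 lower and 1 higher (TOP1, topoisomerase I) with expressed-gene scaling, with a median change of -0.82 on the deposited scale and -1.57 after that scaling. HELLS, a chromatin remodeller, fell to 181, 201 and 174 in TFEB doxycycline, against 479, 711 and 816 in TFEB vehicle, and UHRF1, which guides maintenance methylation, fell to 157, 212 and 174 against 681, 1172 and 1233. In EV doxycycline HELLS ranged over 230 to 686, above TFEB doxycycline. UHRF1 ranged there over 148 to 758, which takes in its TFEB doxycycline values. Of 28 further nucleotide synthesis genes, 1 was lower and 0 higher on the deposited scale, and 17 lower and 0 higher with expressed-gene scaling, with a median of -0.34 on the deposited scale and -1.08 after scaling. The 1 of 28 is no higher a share than among all tested genes. The 1 was DUT, the dUTPase that keeps uracil out of DNA, which fell to 229, 303 and 229 in TFEB doxycycline, against 421, 778 and 863 in TFEB vehicle. DUT ranged over 144 to 617 in EV doxycycline, which again takes in the TFEB doxycycline values. Of 22 E2F and RB family genes and S phase cyclins with their partners, 7 were lower and 1 higher on the deposited scale, and 15 lower and 0 higher with expressed-gene scaling. E2F1 fell to 116, 107 and 85.6 in TFEB doxycycline, against 354, 437 and 344 in TFEB vehicle, and SKP2, a ubiquitin ligase subunit of the G1 to S transition, fell to 101, 121 and 84.4 against 269, 554 and 463. In EV doxycycline E2F1 ranged over 36.8 to 357 and SKP2 over 84.3 to 436, which takes in the TFEB doxycycline values. E2F6, a repressor of the family, rose to 206, 244 and 204 in TFEB doxycycline, against 74, 104 and 111 in TFEB vehicle, on the deposited scale (limma adjusted p = 0.0126) and did not pass the test with expressed-gene scaling (limma adjusted p = 0.125). In EV doxycycline E2F6 ranged over 44.8 to 102. For EV doxycycline against EV vehicle, 25 of 30 fork, 24 of 28 nucleotide and 15 of 22 E2F list genes were lower (deposited scale). On that scale 0 were higher. With expressed-gene scaling 10, 18 and 6 were lower and 1, 1 and 2 higher. Beside them, 23.3% of all tested genes were lower and 3.39% higher on the deposited scale, and 5.75% and 44.1% after scaling.

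Across the cell cycle, 2 lists are read beside 4.66% of all tested genes lower and 17.4% higher on the deposited scale. With expressed-gene scaling these shares were 20.7% and 14.4%, or 33.2% and 34.4% of the expressed genes. The published S phase list shares 20 of its 43 genes with the 50. Against TFEB vehicle 23 of the 43 were lower and 1 higher (SLBP, the histone mRNA binding protein) on the deposited scale. Their median was -1.38. With expressed-gene scaling 41 were lower and 1 higher, with a median of -2.13. Without the shared genes, 11 of 23 were lower and 1 higher on the deposited scale. On the second scale 21 of these 23 were lower and 1 higher. Against TFEB vehicle the G2/M list had 0 of 53 lower and 1 higher (GAS2L3) on the deposited scale, with a median of -0.53. With expressed-gene scaling 46 were lower and 1 higher, with a median of -1.28. For EV doxycycline against EV vehicle, 41 of the 43 S phase and 18 of the 53 G2/M genes were lower (deposited scale). On that scale 0 of either list were higher. With expressed-gene scaling 16 and 3 were lower and 0 and 6 higher. Beside them, 23.3% of all tested genes were lower and 3.39% higher on the deposited scale, and 5.75% and 44.1% after scaling. MKI67, a marker of cycling cells, stood at 7946, 7099 and 4835 in TFEB doxycycline, 6048, 8808 and 10899.7 in TFEB vehicle, 12710.3, 6650.4 and 3647 in EV doxycycline and 12578, 22079.9 and 10019.7 in EV vehicle. For MKI67, limma gave a log2 change against TFEB vehicle of -0.36 ± 0.58 (SE, adjusted p = 0.706) on the deposited scale and -1.11 ± 0.19 (adjusted p = 0.000217) with expressed-gene scaling. The ratio of MKI67 to PCNA reads was 26.1 ± 7.97 in TFEB doxycycline, against 7.96 ± 0.862 in TFEB vehicle, 12.5 ± 0.985 in EV doxycycline and 8.44 ± 0.299 in EV vehicle (SD, n = 3 each). CDKN1A, which encodes the p21 inhibitor of cyclin-dependent kinases and of PCNA, stood at 5790.4, 8762 and 6353 in TFEB doxycycline, 38.4, 26.5 and 53.6 in TFEB vehicle, 98.5, 62.9 and 49.3 in EV doxycycline and 41, 50.6 and 50.4 in EV vehicle. Every TFEB doxycycline library lay far above every other library. Its log2 change against TFEB vehicle was 7.46 ± 0.38 (SE) on the deposited scale (limma adjusted p = 9.67e-20) and 6.71 ± 0.31 with expressed-gene scaling (limma adjusted p = 7.79e-11).

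Neighbours of DBF4 and ORC6 were read as well, both chosen after their values were seen. SLC25A40, a mitochondrial carrier gene that starts next to DBF4 and runs the other way in the RefSeq annotation, stood at 2129, 1797 and 1635 in TFEB doxycycline, 393, 615 and 596 in TFEB vehicle, 690.3, 486 and 152 in EV doxycycline and 889, 1449 and 594 in EV vehicle. It rose too, by 1.81 ± 0.53 on the deposited scale (limma adjusted p = 0.00917) and by 1.06 ± 0.19 with expressed-gene scaling (limma adjusted p = 0.000267). VPS35, a retromer gene that neighbours ORC6, stood at 4244, 6372 and 4858 in TFEB doxycycline, 399, 787 and 777 in TFEB vehicle, 579, 471 and 249 in EV doxycycline and 916, 1603 and 864 in EV vehicle and rose by 3.02 ± 0.52 on the deposited scale (limma adjusted p = 1.3e-05), while ORC6 stood at 479, 354 and 345 in TFEB doxycycline, 225, 385 and 608 in TFEB vehicle, 347, 257 and 167 in EV doxycycline and 575, 942 and 548 in EV vehicle. Whether reads of neighbours were shared by the counting was not tested.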

How the data were processed

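RNA from 12 HL60 libraries was sequenced with NuGEN Ovation FFPE chemistry, per the labels' protocols, and the submitters' processing notes name STAR 2.5.3a and HTSeq 0.6.1. The deposited file holds a normalized signal per gene, made by the authors by dividing reads by 1 factor per library, as read from the values: 100% were whole multiples of 1 step within 0.01. In all 12 libraries that factor matched the median read ratio over genes read in every library. DESeq2, used below as an alternative, estimates a factor of the same kind over the tested genes. In EV vehicle 2 and TFEB vehicle 3 the step lay within 1% of 1, so there rounding to whole numbers would look the same. No source used here gives the build, annotation release or strand setting.

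The values are not counts, so log2(value + 1) was tested with limma 3.58.1 (R 4.3.3, 1 mean per group, variance trend, two-sided, Benjamini-Hochberg under 0.05) on the 23128 genes with a mean of at least 10, all 12 libraries in the fit. A pseudocount of 1 understates changes of low genes. Expressed-gene scaling divides each library by its median read ratio over the nuclear genes whose mean reached 200. Alternatives were pseudocounts of 0.5 and 10, no filter or a mean of at least 50, TMM, equal totals, equal upper quartiles, no variance trend, a replicate block, compared groups alone, a fold of at least 2, leaving out each library, and edgeR 4.0.16 and DESeq2 1.42.0 on recovered reads. For TFEB doxycycline against TFEB vehicle edgeR called 2194 genes lower and 4491 higher. Replicates differed beyond counting error (chi-square per degree of freedom 10.4 to 35.3 over 12 pairs). Deviations of same-numbered TFEB doxycycline and EV vehicle samples had correlations of 0.16, 0.37 and 0.19. Samples with different numbers were not compared and the labels give no pairing. The block is therefore an alternative setting and not a known pairing. The limma and edgeR steps were also run on simulated reads. These were drawn with the expressed-gene factors, which limma was then given, so that run does not test the deposited scale.

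Members, lists and settings were chosen with earlier results of these data known. In each of 10 roles the 2 genes with the largest change against TFEB vehicle, and any called against the majority, are given in full. MKI67 and CDKN1A are given in full too, and TFEB in every library without its change. E2F1 and up to 2 called genes per direction of each pathway list are given more briefly. For these the TFEB line values and the EV doxycycline range are given. Every member could be named. Promoter windows came from RefSeq.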

Additional observations from a re-analysis of the deposited data

Results flagged for a closer look

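In all, 6 replication genes responded to doxycycline differently in the TFEB line and the EV line on the deposited scale, by limma's interaction of vector and drug. All 6 had the higher response in the TFEB line, as did 29.2% of all tested genes and 62.6% of the expressed ones, a larger share than 6 of 50. DBF4 changed by 3.53 in the TFEB line and by -1.60 in the EV line, a difference of 5.13 ± 0.73 (SE, log2; limma adjusted p = 5.67e-07). POLD2 changed by 0.68 in the TFEB line and -2.35 in the EV line, a difference of 3.03 ± 0.82 (limma adjusted p = 0.00389). With expressed-gene scaling both differences stood, at 3.09 ± 0.20 for DBF4 and 0.99 ± 0.29 for POLD2 (limma adjusted p = 1.82e-08 and 0.0101).

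For ORC5 the difference was 2.25 ± 0.57 (limma adjusted p = 0.00223), for RFC2 2.13 ± 0.68 (0.0142), for ORC4 1.88 ± 0.65 (0.0218) and for RPA3 1.64 ± 0.58 (0.0251). The median difference among expressed genes was 2.04 on that scale. With expressed-gene scaling none of the 4 passed the test, at 0.22 for ORC5, 0.10 for RFC2, -0.15 for ORC4 and -0.39 for RPA3.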

How the results depend on the processing

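Counts of the 50 genes moved with the scaling, the samples fitted and the test. Lower against TFEB vehicle were 20 as reported, 38 with TMM factors, 45 with equal totals, 44 with equal upper quartiles, 45 with expressed-gene scaling, 35 with only the compared groups fitted, 39 with edgeR and 35 with DESeq2 on recovered reads. Higher were 1 as reported, 2 with TMM, edgeR or DESeq2 and 3 with the compared groups alone. Lower against EV doxycycline, and lower against each of the 3 controls, were 2 as reported, 20 with TMM, 43 with equal totals, 41 with equal upper quartiles, 43 with expressed-gene scaling, 24 with edgeR, 16 with DESeq2 and 1 without the filter or the variance trend. Higher against EV doxycycline were 6 as reported, 3 with equal upper quartiles and 2 with equal totals or expressed-gene scaling, and higher against EV vehicle were 1 as reported and 2 with TMM or edgeR. In EV doxycycline against EV vehicle 45 were lower as reported, 27 with equal totals, 21 with expressed-gene scaling and 16 with the compared groups alone, and 1 was higher with expressed-gene scaling. The interaction had 0 lower as reported, 9 with TMM, 40 with equal totals, 35 with equal upper quartiles, 41 with expressed-gene scaling, 10 with edgeR and 1 with DESeq2, and 6 higher as reported and 2 with totals, upper quartiles or expressed-gene scaling. The cause was not tested. The share of all tested genes called is given above for the deposited scale, expressed-gene scaling and edgeR. It was not counted for edgeR against each of the 3 controls. For every other setting, including those in the next paragraphs, it was not counted either. Counts under those settings therefore describe the 50 genes and do not set them apart from other genes.

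With each library left out in turn, the counts ranged over 10 to 29 lower and 1 to 2 higher against TFEB vehicle (42 to 45 lower with expressed-gene scaling), 1 to 10 lower and 3 to 7 higher against EV doxycycline (42 to 43 lower and 2 to 3 higher with expressed-gene scaling), and 1 to 10 lower against each of the 3 controls (41 to 43 with expressed-gene scaling). They gave 1 higher against EV vehicle (1 to 2 with expressed-gene scaling), 4 to 49 lower in the EV line (11 to 24 lower and 0 to 1 higher with expressed-gene scaling), and 0 to 1 lower and 4 to 11 higher for the interaction (40 to 41 lower and 2 higher with expressed-gene scaling). These libraries left out with expressed-gene scaling were added after seeing the data.

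Over all pairs of groups, deviations of same-numbered samples had correlations from -0.60 to 0.69, which do not establish a pairing. A replicate block gave 25 lower against TFEB vehicle, 2 lower and 6 higher against EV doxycycline, 39 lower against EV vehicle, 48 lower in the EV line, and 0 lower and 8 higher for the interaction. The block with expressed-gene scaling gave 45 lower against TFEB vehicle, 44 lower and 2 higher against EV doxycycline, 44 lower against each of the 3, 2 higher against EV vehicle, 28 lower and 1 higher in the EV line, and 42 lower and 2 higher for the interaction, and for the genes named next the same changes as that scaling alone.

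Of 1943 alternative values of named genes 90 changed sign, all of them values that had not passed the test as reported. CDT1 against EV doxycycline was -0.62 with equal totals, -0.33 with upper quartiles and -0.56 with expressed-gene scaling (-0.06 to 1.55 with 1 library left out on the deposited scale, -1.01 to -0.15 with expressed-gene scaling). Its interaction was -0.52 with totals, -0.28 with upper quartiles and -0.57 with expressed-gene scaling (0.60 to 2.21 and -1.01 to -0.16). MCM7's interaction was -0.70 with TMM, -1.82 with totals, -1.58 with upper quartiles, -1.87 with expressed-gene scaling, -0.87 with edgeR and -0.45 with DESeq2 (-0.50 to 0.67 and -2.11 to -1.71). Against TFEB vehicle ORC5 was -0.083 with totals (0.50 to 0.98 and -0.049 to 0.12), and POLD2 was -0.18 with totals, -0.020 with upper quartiles and -0.066 with expressed-gene scaling (0.38 to 0.90 and -0.24 to 0.048). TK1 in the EV line was 0.22 with totals, 0.14 with upper quartiles and 0.38 with expressed-gene scaling (-1.40 to -0.39 and 0.21 to 0.47). Few reads stand behind GINS2 and TK1, whose TFEB doxycycline values lie between 20.8 and 55.9.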
